A study of Homo sapiens with 12 samples.

Results

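Chromatin accessibility with SOX2 fused to the C-terminal domain (CTD) of FOXA2 was compared with that of full-length SOX2 in the human osteosarcoma cell line U2OS. The measurement was ATAC-seq, in which the Tn5 transposase cuts and tags open DNA. The fusion list and the SOX2 list, 1 for each group of 2 samples, held 177650 and 147763 entries on chromosomes 1 to 22 and X. Entries were used whatever their irreproducible discovery rate (IDR, a measure of how well a pair of inputs ranks a peak alike). Overlapping entries were merged into 200596 regions. A region was called fusion-specific if it held an entry of the fusion list and none of the SOX2 list, and SOX2-specific in the opposite case. There were 54485 fusion-specific regions (27.2% of all merged regions), 24964 SOX2-specific regions (12.4%) and 121147 shared regions (60.4%), of 399183 regions over all lists of the series.

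The genotype labels were Tet-on SOX2FOXA2CTD and Tet-on SOX2, which stand for constructs that doxycycline switches on, and both groups had received doxycycline at 500 ng/ml for 4 days. The wild-type group of the same set has 2 samples, no genotype and no treatment in its labels, and a title that also names the SOX2 cell line, so it may be parental U2OS or that line without induction. The series holds 12 samples in 6 groups. The other 3 groups are U2OS labelled wild type, Tet-on FOXA2 and Tet-on FOXA2dCTD (FOXA2 without its CTD), the last 2 with the same doxycycline, and each of their libraries has a list of its own. Whether each construct line was 1 clone is not stated in the sources used here. Each SOX2-set list carries a −log10 p for each of 2 inputs, taken to be both samples of the group. A single list per group leaves no spread between samples for counts of regions, so the intervals below cover counting error alone.

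SOX2 is a transcription factor of pluripotent and neural progenitor cells whose HMG box binds and bends DNA. FOXA2 is a forkhead factor of endoderm, liver and floor plate. Both are called pioneer factors because they can bind DNA that is wrapped in nucleosomes and are followed by opening of the chromatin. The CTD of FOXA2 lies outside its forkhead domain, and the fusion joins it to a SOX2 protein that keeps its own DNA-binding domain.

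Promoters are shown as examples of sequence at specific regions, of which few lay at a start. RefSeq promoters (GRCh38.p14), which run from 250 bases before to 50 bases after the start, are given for the 2 protein-coding genes per class whose promoter region stood highest in its own list. They read 5′ to 3′ on the gene's strand, and capitals mark the SOX motif (ACAATG or ACAAAG, on either strand, so also CATTGT and CTTTGT) or the forkhead motif (GTAAACA or its reverse complement TGTTTAC). A forkhead match can run into a SOX match over the letters ACA. The fusion-specific promoters are those of IGF1, a growth factor gene (chr12:102481698-102481997, minus strand), and MYLK, the gene of myosin light chain kinase (chr3:123620499-123620798, minus strand). The SOX2-specific promoters are those of SCG3, a gene of secretory granules (chr15:51681253-51681552, plus strand), and MSH3, a mismatch repair gene (chr5:80654402-80654701, plus strand).
IGF1: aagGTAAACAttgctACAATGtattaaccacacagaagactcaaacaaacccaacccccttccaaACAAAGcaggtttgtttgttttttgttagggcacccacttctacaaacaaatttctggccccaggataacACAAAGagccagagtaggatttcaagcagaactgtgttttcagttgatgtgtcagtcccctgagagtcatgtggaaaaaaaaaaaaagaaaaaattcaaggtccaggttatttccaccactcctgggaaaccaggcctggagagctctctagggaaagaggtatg
MYLK: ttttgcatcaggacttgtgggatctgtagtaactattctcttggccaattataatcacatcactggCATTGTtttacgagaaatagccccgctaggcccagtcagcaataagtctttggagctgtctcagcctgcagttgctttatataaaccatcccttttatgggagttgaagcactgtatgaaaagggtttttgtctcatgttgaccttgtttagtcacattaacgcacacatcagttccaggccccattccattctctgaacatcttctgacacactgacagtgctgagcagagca
SCG3: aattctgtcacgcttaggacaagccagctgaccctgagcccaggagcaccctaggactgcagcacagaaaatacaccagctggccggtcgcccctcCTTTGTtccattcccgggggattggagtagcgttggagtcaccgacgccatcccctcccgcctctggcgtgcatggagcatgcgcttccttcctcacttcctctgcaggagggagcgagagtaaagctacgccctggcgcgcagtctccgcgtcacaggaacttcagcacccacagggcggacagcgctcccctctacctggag
MSH3: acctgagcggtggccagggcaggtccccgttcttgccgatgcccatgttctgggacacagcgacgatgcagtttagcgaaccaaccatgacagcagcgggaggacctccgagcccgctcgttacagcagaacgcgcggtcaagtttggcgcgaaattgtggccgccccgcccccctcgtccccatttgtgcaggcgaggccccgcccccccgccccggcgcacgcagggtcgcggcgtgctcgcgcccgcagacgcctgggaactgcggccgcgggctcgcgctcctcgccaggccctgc

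The IGF1 promoter held 3 matches to the SOX motif and 1 to the forkhead motif at a GC content of 42.3%. The IGF1 region covered its first 81 bases, and the SOX match that starts at base 136 from the 5′ end lay outside it. MYLK held 1 SOX match at 43.7%. SCG3 held 1 SOX match at 62% GC, and MSH3 held no match to either motif at 71.0%. The IGF1 entry of the fusion list had −log10 p values of 9.27 and 12.3 in inputs 1 and 2, and the MYLK entry 8.27 and 8.56, with no wild-type entry at either promoter. The SCG3 entry of the SOX2 list had 15.6 and 14.1, and wild-type inputs 21.1 and 11.1. The MSH3 entry had 21.8 and 13.2, and wild-type inputs 13.7 and 21.6. Both SOX2-specific promoters were therefore also open in the wild-type list, and both fusion-specific promoters were absent from it.

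Over all 27194 promoters of the table, 379 were touched by a fusion-specific region and by no other, and 38.8% of these (Wilson 95% interval 34.0–43.8%) held the SOX motif. The share was 22.1% (18.4–26.4%) of 411 SOX2-specific promoters, 16.4% of 13336 shared promoters, 32.5% (31.7–33.3%) of the 13066 promoters without an entry, and 24.6% of all promoters. Base composition moved with these shares: the median GC content was 48% in fusion-specific promoters, 60.3% in SOX2-specific, 65.3% in shared and 49% in promoters without an entry. The forkhead motif was found in 7.65% (5.38–10.8%) of fusion-specific and 4.14% (2.60–6.52%) of SOX2-specific promoters, beside 4.42% of those without an entry. The AP-1 motif (TGANTCA, which is its own reverse complement) was found in 21.1% (17.3–25.5%) and 11.2% (8.50–14.6%), beside 8.59%. Promoters without an entry thus had nearly the GC content of fusion-specific ones and lower shares of all 3 motifs. The part of base composition in these shares was not tested, and a match describes letters only.

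The labels were checked at the genes of the constructs and at cell type markers. In FOXA2, an entry at chr20:22581797-22582528 was fusion-specific, with −log10 p values of 6.58 and 7.92 and a global IDR of 0.0241, and neither the SOX2 list nor the wild-type list beside it had an entry there. A peak was found there in each of the 6 FOXA2-set lists, also in both that carry a wild-type label. In SOX2, an entry was found in all 3 lists, with values of 14.96 and 20.4 in the fusion inputs, 26.3 and 22.7 in the SOX2 inputs and 26.1 and 10.8 in the wild-type inputs, so the SOX2 gene does not separate the groups. Of 10 osteoblast and mesenchymal markers, 8 had an entry at the gene in the fusion list, 9 in the SOX2 list and 8 in the wild-type list. Among these 10, the highest values in the fusion list were at SPARC (22.4), COL5A1 (21.3) and COL1A1 (14.8), which encode matrix proteins. The highest value was at FN1 (31.1) in the SOX2 list and at SPARC (34.6) in the wild-type list. Epithelial markers had an entry in 2, 3 and 2 of 5 genes, blood markers in 2 of 5 in each list, and liver markers in 1 of 5 in each list. Some of these values were high too. The highest blood values were 16.8 in the fusion list (SPI1, above COL1A1), 24.8 in the SOX2 list (SPI1) and 27.2 in the wild-type list (CD3E). In the same order, the highest epithelial values were 4.63, 9.35 and 17.2, and the liver values 12.1, 13.6 and 16.1.

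Fusion-specific regions outnumbered SOX2-specific ones, but the fusion list was also the longer one. With the strongest 147763 entries of each list, 35036 regions were fusion-specific and 34936 were SOX2-specific. With both lists limited to a global IDR of at most 0.05, which leaves 75544 and 65628 entries, the numbers were 25045 and 15169. A region that is specific at this limit may hold an entry of the other list above the limit, and most did. Strong one-sided entries were more common with the fusion. Entries at a global IDR of at most 0.05 without any entry in the other list made 5621 fusion-specific regions (10.3%) and 1029 SOX2-specific regions (4.12%). With equal numbers of entries these were 5621 and 2866.

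Most specific regions were weak. The median fusion-specific region stood at the 15.2th percentile of the fusion list by its weaker input, and the median SOX2-specific region at the 11.2th percentile of the SOX2 list. Only 187 fusion-specific regions (0.343%) and 5 SOX2-specific regions (0.0200%) reached the top 20% of their list, beside 21.5% and 19.5% of shared regions. Specific regions were narrow, with median widths of 389 and 345 bp against 735 bp for shared regions. They lay a median of 7856 bp (fusion) and 7640 bp (SOX2) from the nearest shared region.

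None of the 5 strongest fusion-specific regions lay within 1 kb of a known gene start. The first was in CEP128, a gene of the centriole (chr14:80882278-80883235), with −log10 p values of 28.6 and 22.8. It had no entry in any other list of the series. The next was at chr8:114259007-114259921, 822068 bp from CSMD3, with 23.5 and 20.4. The third lay 993048 bp from BRINP3 (chr1:189103771-189104610, 20.9 and 26.9) and was the only one of these 5 with a wild-type entry (6.15 and 5.40). Those in AZI2 (chr3:28322476-28323087, 20.1 and 22.6) and RPS6KC1 (chr1:213139835-213140838, 19.8 and 25.5) followed. In the FOXA2 set, the region in AZI2 was called in both full-length and both CTD deletion libraries. The one beyond BRINP3 was called in full-length replicate 1, both CTD deletion libraries and replicate 2 of the samples labelled wild type. The one beyond CSMD3 was called in full-length replicate 2 and CTD deletion replicate 2, and that in RPS6KC1 in full-length replicate 1.

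The strongest SOX2-specific regions stood lower in their own list and mostly had a wild-type entry. By its weaker input the first stood at the 86.8th percentile, against the 96.6th for the region in CEP128. The first lay in CNTNAP2, a neuronal adhesion gene (chr7:148084089-148084547), with 19.3 and 18.3 in the SOX2 inputs and 6.15 and 4.34 in the wild-type inputs. The next was 111473 bp from CTNND2, which encodes a neuronal catenin (chr5:12015919-12016636, 17.8 and 16.5, wild type 4.07 and 3.92). Regions in KLF17 (chr1:44072224-44072594, 16.7 and 14.9, wild type 13.03 and 6.51) and CBR3 (chr21:36141446-36142324, 16.96 and 14.8, wild type 4.07 and 8.90) came after it. The fifth, 782573 bp from ZNF33B (chr10:41790809-41791596, 15.1 and 16.5), had no wild-type entry. It lies in a long stretch without genes, of the kind described below.

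Wild-type cells were used to ask which specific regions were open without either induced construct. A wild-type entry was found at 18.5% (18.2–18.8%) of fusion-specific regions, 25.4% (24.8–25.9%) of SOX2-specific regions and 56.2% (55.9–56.5%) of shared regions. The difference between the specific classes was -6.88 percentage points (-7.51 to -6.25). It grew with strength. In the weakest class, which ends at the 10th percentile, the shares were 16.7% of 19491 fusion-specific and 21.0% of 11591 SOX2-specific regions. Between the 50th and 60th percentile they were 17.6% of 2156 and 43.3% of 467. The share thus stayed between 13.8% and 21.4% in every fusion-specific class of at least 100 regions, while the SOX2-specific share lay at 38.6% or more in every such class above the 40th percentile. Averaged over the 7 classes that hold at least 100 regions of each kind, the difference was -14.7 points.

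**Figure D1:**
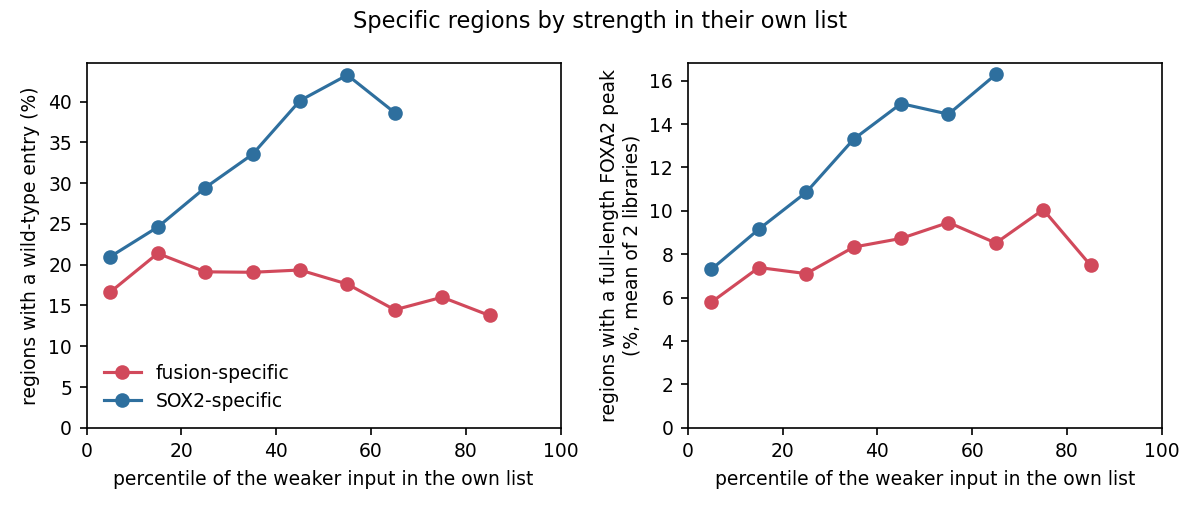
Share of fusion-specific (red) and SOX2-specific (blue) regions with a wild-type entry (left, %) or with a peak in the full-length FOXA2 lists (right, %, mean of 2 libraries) against the percentile of the weaker input in the own list, in classes 10 points wide with at least 100 regions. The SOX2-specific share with a wild-type entry goes from 21.0% in the weakest class to 43.3% between the 50th and 60th percentile, and the fusion-specific share from 16.7% to 17.6%.

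The FOXA2 set, from the same cell line and with wild-type samples of its own, was used to ask whether regions open with the fusion were also open with FOXA2. They were not called there more often than SOX2-specific regions. Full-length FOXA2 replicates 1 and 2 had a peak at 10.3% and 3.91% of fusion-specific regions (mean 7.09% ± 4.50, SD, n = 2) and at 13.1% and 5.39% of SOX2-specific regions (9.24% ± 5.44, SD, n = 2). The difference of the means was -2.15 points, with -2.82 in replicate 1 and -1.48 in replicate 2. It was smaller than the SD between libraries, but that SD is of the shares and is not a spread of the difference. For FOXA2 without its CTD the shares were 6.60% and 11.99% of fusion-specific and 8.49% and 14.4% of SOX2-specific regions. The libraries labelled wild type in that set had 0.820% and 1.75% against 1.60% and 3.24%. The order of the classes was thus the same in all 6 libraries, and shared regions were higher in each, at 38.0% and 24.6% with full-length FOXA2. No permutation test was run, because both classes were counted in the same 2 libraries, which leaves only 2 paired values. With the strongest 19862 peaks of each FOXA2-set list the difference was -0.229 points. With the SOX2-set lists limited to a global IDR of at most 0.05 it was -15.1 points (18.3% against 33.4%). Specific regions at that limit may hold a weaker entry of the other list. For strong one-sided entries, which have none, the difference was -7.56 points (8.86% against 16.4%).

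**Figure D2:**
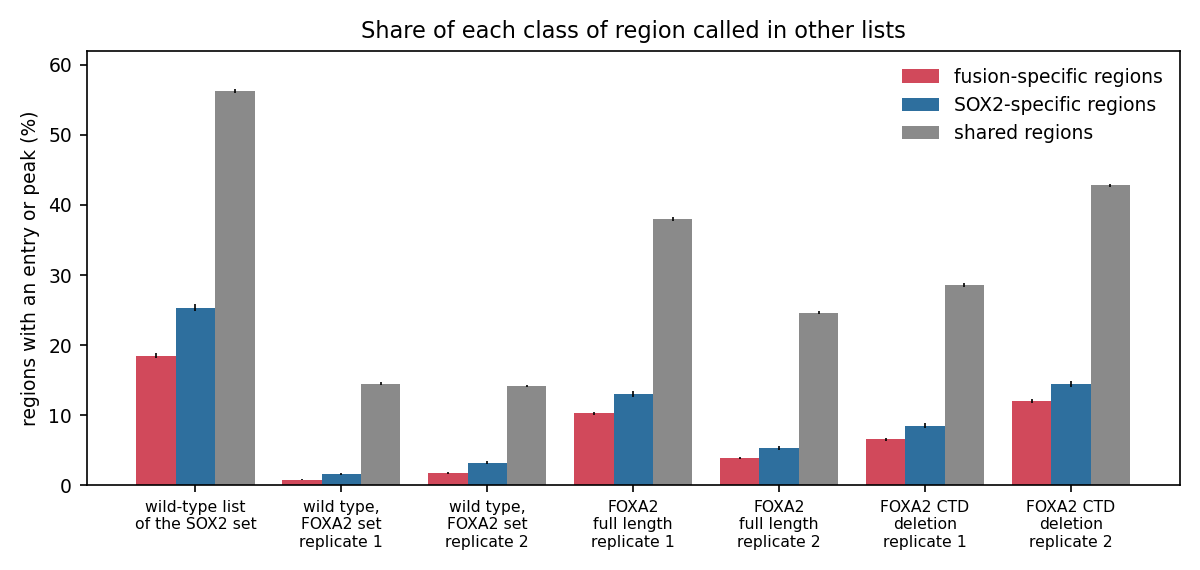
Share of fusion-specific (red), SOX2-specific (blue) and shared (grey) regions, in %, that overlap an entry of the wild-type list of the SOX2 set or a peak of each of the 6 libraries of the FOXA2 set. Bars are shares and error bars are Wilson 95% intervals. In each of the 7 lists the fusion-specific share is the lowest (18.5% in the wild-type list) and the shared share the highest (56.2%).

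The share at a gene start was lower in specific regions of both kinds than in shared regions. A start of a protein-coding gene lay within 1 kb of 1.21% (1.12–1.31%) of fusion-specific, 2.24% (2.06–2.43%) of SOX2-specific and 8.77% (8.61–8.94%) of shared regions. Chromosome 8 was left out of this share, and starts were known for 15811 of 19970 protein-coding genes. With both lists limited to a global IDR of at most 0.05 these shares were 3.33%, 10.5% and 14.4%, where specific regions may hold a weaker entry of the other list. For strong one-sided entries, the specific shares were 0.435% and 4.34%. Within 5 kb, at any IDR, the specific shares were 4.89% (4.70–5.07%) and 5.14% (4.87–5.43%), whose intervals overlap. Inside a protein-coding gene lay 42.9% of fusion-specific, 39.2% of SOX2-specific and 47.2% of shared regions. More than 500 kb from any such gene lay 9.03%, 15.9% and 8.06%, so that SOX2-specific regions were the most remote.

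Much of this remoteness sat in long stretches without an annotated gene. There were 27 stretches of at least 2 Mb (173.5 Mb in all), at least 1 on every chromosome. As background, the longest such stretches of human chromosomes surround the centromeres or cover the short arms of acrocentric chromosomes. They held 5471 regions, of which 47.9% (46.6–49.2%) were SOX2-specific and 11.6% (10.7–12.4%) fusion-specific. Elsewhere the shares were 11.5% and 27.6%, so the order of the classes was the opposite. On each of the 23 chromosomes the SOX2-specific share in the stretches was above the fusion-specific share, from 23.4% against 15.96% on chromosome 17 to 73.0% against 6.45% on chromosome 20. The 2620 SOX2-specific regions in stretches made 10.5% of all SOX2-specific regions, and 632 fusion-specific regions made 1.16% of theirs. Of these 2620 regions 5.95% had a wild-type entry, against 27.6% of SOX2-specific regions elsewhere. Without the stretches the wild-type difference was -9.01 points and the start difference -1.28 points, and the full-length FOXA2 difference was -1.002 points.

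**Figure D3:**
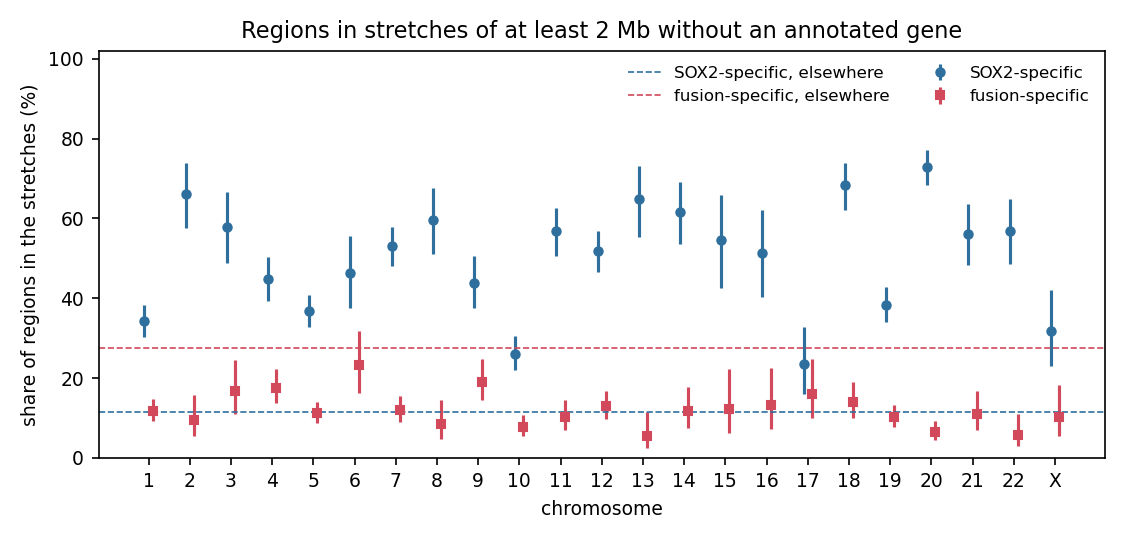
Share of regions (%) in stretches of at least 2 Mb without an annotated gene that were SOX2-specific (blue circles) or fusion-specific (red squares), by chromosome, with Wilson 95% intervals. Dashed lines give the shares elsewhere (11.5% and 27.6%), and on every chromosome the blue circle stands above the red square.

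The classes were also spread unevenly over whole chromosomes. Fusion-specific regions made from 17.05% (15.9–18.3%) of regions on chromosome 19 to 33.6% (32.4–34.8%) on chromosome X. SOX2-specific regions made from 9.59% (8.86–10.4%) on chromosome X to 19.5% (18.1–20.9%) on chromosome 22. The ratio of fusion-specific to SOX2-specific regions was lowest on chromosomes 22 (1.07) and 19 (1.08) and highest on chromosomes X (3.50) and 4 (3.02). Gene density was set beside these shares. Chromosome 19 had 24.8 protein-coding genes per Mb, chromosome 22 had 8.88, chromosome X had 5.44, and chromosomes 4 and 13 had 4.04 and 2.96. Across the 23 chromosomes, which come from the same libraries, Spearman's rho between gene density and the fusion-specific share was -0.71 (Pearson's r -0.80) and -0.76 without the long stretches. For the SOX2-specific share it was 0.43 (Pearson's r 0.37) and 0.46, and for the ratio of both classes -0.57 (Pearson's r -0.58). The 5 Mb window with the highest fusion-specific share was 25 to 30 Mb of chromosome X (49.5% of 101 regions), and the one with the highest SOX2-specific share was 15 to 20 Mb of chromosome 18 (62.3% of 252), beside medians of 27.4% and 10.96% over 587 windows.

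**Figure D4:**
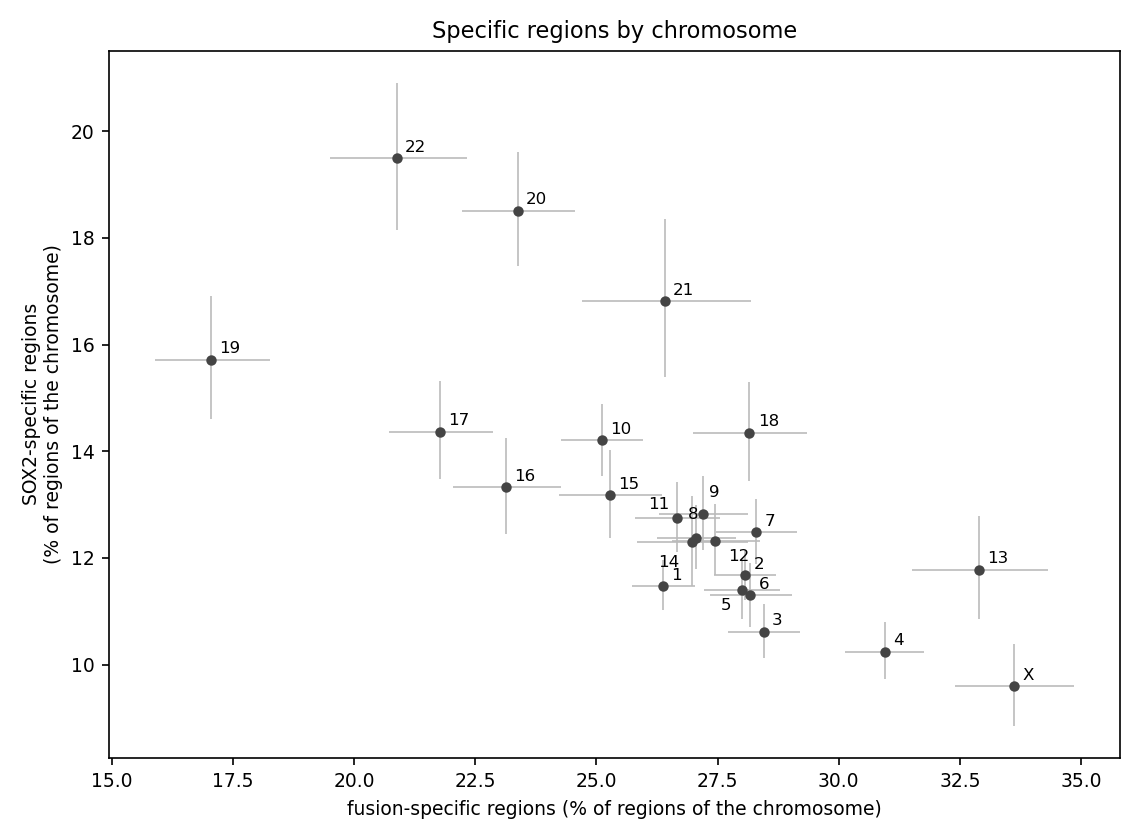
SOX2-specific share against fusion-specific share of the regions of each chromosome (both in %), with Wilson 95% intervals. Chromosome X lies at 33.6% fusion-specific and 9.59% SOX2-specific, and chromosomes 19 and 22 lie at 17.05% and 20.9% fusion-specific.

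Regions were then assigned to the nearest protein-coding gene. Of 18183 genes with a region, 2556 had at least 20, and their median share was 29.2% fusion-specific and 10.5% SOX2-specific. The highest fusion-specific shares were at DYRK2, a protein kinase gene (14 of 22 regions), NR3C2, which encodes the mineralocorticoid receptor (23 of 37), AMOT, a gene of the Hippo pathway (12 of 20), and PCDH20, a protocadherin gene (22 of 37). SGIP1 (13 of 22), KCTD12, POU3F1 and SPCS3 (12 of 21 each) followed. POU3F1 encodes a POU factor of the neural and epidermal lineages. None of the regions of these 8 genes lay in the long stretches. With 20 to 37 regions the intervals are wide, as for DYRK2 (63.6%, 43.0–80.3%).

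The highest SOX2-specific shares were at ROCK1 (79 of 112 regions), ZNF337 (255 of 387), OR11H12 (94 of 167), POTEA (51 of 92), OR4C12 (89 of 167), LOC107985915 (27 of 52), OR4C46 (67 of 130) and PROS1 (60 of 119). All 8 border the long stretches, which held from 89.9% to 100% of their SOX2-specific regions, so these shares describe the stretches. For that reason a count by regions inside the gene was added after these values were seen. Among 893 genes with at least 20 regions inside, the medians were 28.9% and 10.3%. The highest fusion-specific shares there were in FMN1, a formin gene (14 of 22), SLC10A7 (14 of 24) and ZNF804B (20 of 38). The highest SOX2-specific shares were in KCND3, a potassium channel gene (9 of 22), ZNF831 (8 of 20), RBFOX3, a neuronal splicing factor gene (13 of 36), and SHB (7 of 20).

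Gene lists of the lineages of both factors stood near the background of 27.2% fusion-specific and 12.4% SOX2-specific regions. Of regions at 20 neural progenitor genes, where SOX2 is known to act, 28.6% (24.2–33.4%) were fusion-specific and 16.2% (12.8–20.3%) SOX2-specific. DLL1, a Notch ligand gene, had 9 SOX2-specific and 3 fusion-specific among 22 regions, and SOX21 had 4 fusion-specific and no SOX2-specific region among 7. Pluripotency genes had 29.9% (25.4–34.9%) and 11.1%. In that list SOX2 itself had 25 fusion-specific and 3 SOX2-specific among 60 regions, and JARID2, a Polycomb partner, had 10 and 15 among 67. Endoderm and foregut genes, where FOXA2 is known to act, had 30.6% (25.5–36.2%) and 9.25% (6.39–13.2%). GSC, a gastrula organizer gene, had 1 fusion-specific and 3 SOX2-specific among 8. Liver genes had 34.3% (26.9–42.6%) and 10.2%, with 5 and 0 among 9 at ALB, the albumin gene. The interval of the fusion-specific share included the background in each of these 4 lists, and the interval of the SOX2-specific share lay above it in the neural progenitor list. In that list GLI2, POU3F3, DLL1 and SOX1, named after their counts were seen, held 44 of the 60 SOX2-specific regions. The other genes held 16 among 186 regions (8.60%). Leaving out the genes with the highest counts lowers this share by construction, so it cannot be read against the background.

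The SOX family had 30.3% (26.7–34.1%) fusion-specific and 13.3% (10.8–16.3%) SOX2-specific regions, and both intervals included the background of 27.2% and 12.4%. Of its 17 genes with a region, 12 had more fusion-specific than SOX2-specific regions and 3 had equal numbers. The other 2 were SOX7 and SOX1, a neural gene with 7 fusion-specific and 9 SOX2-specific among 34. SOX4 and SOX21 each had 4 and 0 among 7. The forkhead family had 28.4% (24.7–32.3%) and 10.1%, and FOXJ3 had 10 fusion-specific and no SOX2-specific region among 20. Osteoblast genes had 25.2% (20.7–30.3%) and 10.2%, and BMPR1A, a BMP receptor gene, had 5 and 2 among 11. Genes of the epithelial to mesenchymal transition had 30.6% (26.8–34.7%) and 9.42% (7.20–12.2%). SNAI1, a repressor of epithelial genes, had 4 and 1 among 10, and CDH1, the E-cadherin gene, had 1 and 4 among 7. TEAD and YAP genes had 25.6% and 9.48%, and AP-1 genes 20.8% (15.2–27.7%) and 10.7%. Ribosomal protein genes had 19.3% (13.1–27.5%) and 14.9%, and olfactory receptor genes 42.4% (27.2–59.2%) of only 33 regions and 6.06%.

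Shared regions were compared by rank, since −log10 p values of different lists depend on depth, which is unknown. Each of the 4 inputs was turned into percentiles over the 121147 shared regions. Spearman's rho across these regions, which share libraries and are not independent, was 0.73 between the fusion inputs, 0.78 between the SOX2 inputs and from 0.64 to 0.65 between a fusion and a SOX2 input. A region was counted as ranked higher with a construct if the nearest inputs of the constructs lay at least 20 percentile points apart. By this count 6488 shared regions (5.36%) ranked higher with the fusion and 5075 (4.19%) with SOX2. Which number was larger depended on the count. With no gap asked for, both fusion inputs stood above both SOX2 inputs in 28661 regions (23.7%) and below them in 29594 (24.4%). From the first inputs alone, at a gap of 20 points, the numbers were 21594 with the fusion and 21928 with SOX2, and from the second inputs alone 21923 and 21667. With percentiles over the whole own list they were 8709 and 2747. The region nearest to the threshold on the inside was next to CSMD3 for the fusion (20.001 points) and KDM3A for SOX2 (20.001 points), and those nearest on the outside were at ABCB9 and ACVR2B.

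Regions ranked higher with the fusion mostly lacked a wild-type entry and lay away from starts. A wild-type entry was found at 28.8% (27.7–29.9%) of them, at 65.5% (64.2–66.8%) of regions ranked higher with SOX2 and at 56.2% of all shared regions. A gene start lay within 1 kb of 1.00% (0.783–1.29%), 13.1% (12.1–14.04%) and 8.77%. Full-length FOXA2 replicates 1 and 2 had a peak at 18.6% and 8.62% of regions ranked higher with the fusion, at 43.2% and 26.0% of those ranked higher with SOX2, and at 38.0% and 24.6% of all shared regions. FOXA2 without its CTD had 15.2% and 23.5%, 25.2% and 46.5%, and 28.6% and 42.8%. Fusion-specific and SOX2-specific regions had the same order in each of these lists and at gene starts.

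Gene starts stood lower in the fusion ranks. The 10022 shared regions within 1 kb of a start had median percentiles of 78.3 and 80.1 in the fusion inputs and 89.3 and 90.0 in the SOX2 inputs. Of these, 0.609% ranked higher with the fusion and 6.28% with SOX2. A region near the top of the SOX2 ranks has little room to rank 20 points higher, which bears on the first share. Regions inside genes without a start nearby had medians of 48.2, 48.1, 47.5 and 47.2 in the same order of inputs, and 5.76% and 3.94% ranked higher with the fusion and with SOX2. Among regions over 100 kb from a gene these were 6.77% and 4.30%.

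**Figure D5:**
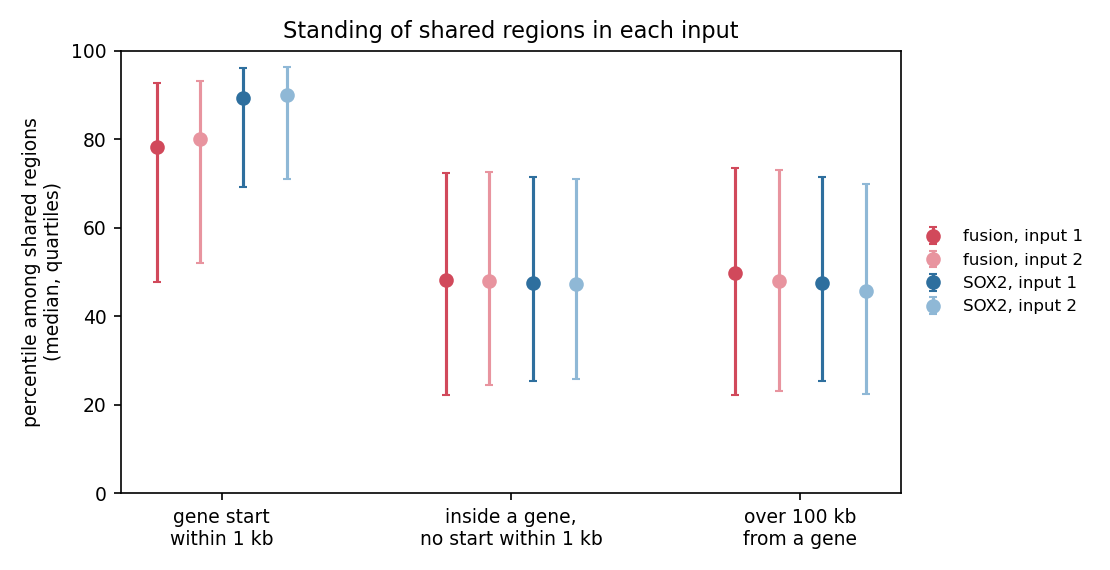
Percentile among shared regions in each input of the fusion list (reds) and the SOX2 list (blues), for regions with a gene start within 1 kb, regions inside a gene without one, and regions over 100 kb from a gene; points are medians and bars are quartiles. At gene starts both fusion inputs have lower medians (78.3 and 80.1) than both SOX2 inputs (89.3 and 90.0), and elsewhere the 4 medians lie between 45.8 and 49.8.

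Some wide entries had low values in the fusion inputs. Of entries at least 1000 bp wide in an input, 12.7% and 12.3% had a −log10 p under 5 in fusion inputs 1 and 2, against 6.95% and 7.54% in the SOX2 inputs and 7.48% and 8.37% in the wild-type inputs. The limit of 5 was the same for every list, and values ran lower in the whole fusion list. The median −log10 p of all entries was 5.95 and 6.04 in the fusion inputs and 7.34 and 7.10 in the SOX2 inputs. Of the regions ranked higher with SOX2, 7.47% held such an entry of the fusion list, against 2.30% of all shared regions. Of those ranked higher with the fusion, 1.26% held such an entry of the SOX2 list, against 1.29% of all shared regions. Without regions that hold a wide but weak entry of either list, an alternative added after these values were seen, 6298 regions (5.38% of those left) ranked higher with the fusion and 4977 (4.25%) with SOX2. The shares with a wild-type entry were then 28.1% and 63.6%, and those at gene starts 0.713% and 10.6%. At starts the medians were then 80.5 and 81.8 in the fusion inputs and 90.1 and 90.8 in the SOX2 inputs.

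The shared regions that ranked highest with the fusion relative to SOX2 lay away from gene starts, apart from 2 described last. In FAM163A (chr1:179752984-179753747) the −log10 p values were 23.4 and 19.7 in the fusion inputs and 2.43 and 3.54 in the SOX2 inputs, which placed the region at percentiles 95.01 and 91.8 against 0.489 and 8.82. In CNTN3, a contactin gene (chr3:74287552-74288320), they were 21.4 and 19.2 against 3.88 and 2.77. At chr3:29134587-29135098, 145973 bp from RBMS3, they were 16.2 and 15.9 against 3.13 and 2.07. Regions near CSNK2A2IP (22.7 and 18.7 against 3.88 and 3.54), in ZNF519 (36.9 and 27.3 against 4.69 and 4.36) and in THSD7B (22.9 and 18.01 against 3.88 and 3.54) followed. Of these 6 the one in ZNF519 (chr18:14104907-14106016) had a wild-type entry, with values of 12.1 and 10.2. The other 2 of the first 8 regions, at ranks 1 and 4, were the starts of DCAF4 and GGPS1. The SOX2 entries there were wide but weak (2.85 and 3.10, and 2.58 and 3.39). Both had a wild-type entry, with values of 47.6 and 51.4 at DCAF4 and 23.9 and 18.8 at GGPS1. Each was also called in every library of the FOXA2 set.

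The regions that ranked highest with SOX2 relative to the fusion were mostly gene starts, and 7 of the first 8 held a wide but weak fusion entry. Of these 7, those of BMPR2, SURF4, AMOTL2, GMPS and EGR1 were at the gene, and the others lay 3622 bp outside KICS2 and 100827 bp outside PRKX. At BMPR2, a receptor gene of the BMP pathway (chr2:202375241-202376923), the values were 2.93 and 2.41 in the fusion inputs against 34.7 and 29.7 in the SOX2 inputs. At EGR1, an immediate early gene (chr5:138463865-138466535), they were 3.796 and 2.88 against 28.1 and 23.2, and the wild-type inputs had 35.5 and 26.3. Only the region in LETM2 (chr8:38382066-38383142) was without such an entry, with 2.96 and 2.22 against 20.4 and 21.2 and wild-type values of 20.9 and 19.4. When wide but weak entries were left out, the regions after LETM2 were in TM9SF3 (3.67 and 2.402 against 15.7 and 29.7) and HS2ST1, a heparan sulfate enzyme gene (2.97 and 1.97 against 13.5 and 13.5). They were followed by one 124797 bp from PTPRD (2.97 and 3.62 against 15.8 and 17.1), and of these 3 the one in TM9SF3 had a wild-type entry.

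Relative to the wild type, a small number of shared regions stood on opposite sides with the constructs. Of 68105 shared regions with a wild-type entry, 919 (1.35%) had both fusion inputs above and both SOX2 inputs below the wild-type inputs, and 1335 (1.96%) had the opposite. Both constructs are set against the same wild-type list here. No gap was asked for, and the shares that a random order of the inputs would give were not worked out.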

How the data were processed

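The authors deposited 9 peak lists: 3 lists for pairs of inputs in the layout of the IDR procedure (SOX2 set) and 6 lists in the layout of MACS2 (FOXA2 set). Per the submitters' processing notes, the tools included FastQC 0.10.1, Trim Galore, Bowtie2 2.4.4, SAMtools 0.1.18, MACS2 and deepTools 2.4.1, with hg38. Parameters, duplicate handling and read depth are not given in the sources used here. In every row of an IDR list, the deposited −log10 p equals the smaller input value, and it and the −log10 values of both inputs were used only for ranks within a list. The deposited fold enrichment of the FOXA2 set, a ratio over each library's own background made by the authors, described construct peaks only, and the deposited summit positions served for windows of 150 bp on each side.

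Entries of chromosomes 1 to 22 and X were merged at an overlap of 1 bp (Python 3.11.15, numpy 2.4.6, pandas 2.3.3, scipy 1.17.1, matplotlib 3.10.9). Regions were assigned to the nearest protein-coding gene by its extent (RefSeq, GRCh38.p14), where a gene start had been planned, because starts were known for 15811 of 19970 genes. Motifs in the regions themselves were not analysed here, for want of a genome, and promoters took their place. Shares have Wilson 95% intervals. No p-value was computed, since each group had 1 list. Named regions and genes are the 5 highest of each class, the 8 largest rank gaps per direction, the 8 genes of at least 20 regions with the highest share of each class, and, per gene list, genes of at least 5 regions with the highest share, of which the text gives a part, and both construct genes. For the count inside genes, genes among the first 4 are named. Some genes that these rules select are not reported here. Members and gene lists were chosen with earlier results of these data known. The merging and ranking were tested on simulated data. Alternatives covered IDR, list length, windows, overlap, inputs, the rank gap, start distance and FOXA2 libraries.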

Additional observations from a re-analysis of the deposited data

Results flagged for a closer look

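Among the 68105 shared regions that also had a wild-type entry, some stood on opposite sides of the wild-type ranks with the constructs. In 919 regions (1.35%) both fusion inputs ranked above both wild-type inputs and both SOX2 inputs below them. In 1335 regions (1.96%) the fusion inputs ranked below and the SOX2 inputs above. The difference between the constructs was not tested, and both are set against the same wild-type list. No gap between the inputs was asked for. The shares that a random order of the inputs would give were not worked out, so these counts alone do not show a difference. The first group was led by ZNF519, where percentiles over these regions were 99.2 and 96.5 with the fusion, 12.1 and 11.4 with SOX2 and 57.9 and 47.4 in the wild type. FBXL17 followed, with 90.0 and 83.1, 6.50 and 5.71, and 20.3 and 26.7. The same group also held TNFRSF11A, the gene of the receptor RANK, and MAFF, the gene of a small MAF factor. At TNFRSF11A the wild-type inputs lay far apart, at 77.7 and 15.7. At MAFF the lower fusion input stood at 76.4 and the higher wild-type input at 74.7. The second group was led by the starts of BMPR2 and SURF4 and by AMOTL2, all with a wide but weak fusion entry, and then by NRIP1, a nuclear receptor corepressor gene. The wild-type inputs lay far apart at BMPR2 (79.1 and 7.69) and at SURF4 (39.2 and 90.0). At AMOTL2 they stood at 94.9 and 94.6, just below the lower SOX2 input at 95.5. NRIP1 had 16.8 and 15.003 with the fusion, 90.3 and 95.7 with SOX2 and 84.5 and 81.9 in the wild type.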

How the results depend on the processing

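No paired analysis was possible because both samples of a SOX2-set group share 1 list, and the results come from no test. Read depth is unknown, list length sets how many regions count as specific, and no count has a spread between samples. None of the 26 recomputed differences between shares changed sign; the other 36 recomputed values are counts. The number of fusion-specific regions went from 54485 to 25045 at a global IDR of at most 0.05, to 35036 with equal numbers of entries, and to 5621 when an IDR of at most 0.05 was asked of the one list and no entry of the other, also 5621 with equal numbers. SOX2-specific regions went from 24964 to 15169, 34936, 1029 and 2866 in the same order. With both lists cut at the IDR limit, specific regions may hold a weaker entry of the other list. Regions ranked higher with the fusion (6488) were 3137 at the IDR limit, 13295 with a gap of 10 points and 2948 with 30, and those ranked higher with SOX2 (5075) were 2688, 12476 and 1663. With percentiles over the whole own list, which is longer for the fusion, they were 8709 and 2747. From first or second inputs alone, they ranged from 21594 to 21923 and from 21667 to 21928, and from the first inputs the number with SOX2 was the larger.

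The difference in the share with a wild-type entry (-6.88 points) was -14.1 at the IDR limit, -11.4 with equal numbers of entries, -7.55 in windows around summits, -8.37 with an overlap of at least 50%, -27.4 for strong one-sided entries, -9.01 without long gene-free stretches and -14.7 with equal weight for classes of strength. In the same order, the difference at gene starts (-1.03 points) was -7.19, -1.77, -1.38, -1.45, -3.90, -1.28 and -1.68. It was -0.257 within 5 kb, with an interval from -0.599 to 0.0774, and -1.22 within 1 kb of either end of a gene. In that order too, the difference in full-length FOXA2 lists (-2.15 points) was -15.1, -3.96, -3.49, -2.88, -7.56, -1.002 and -4.43, and -0.229 with equal numbers of FOXA2 peaks. Without a full-length FOXA2 replicate it ranged from -2.82 to -1.48. The cause of these shifts was not tested. The values for strong one-sided entries, stretches, strength classes, gene ends and wide but weak entries were chosen after seeing the data, and planned motif shares were not run.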
